A study of Rattus norvegicus with 6 samples.

Results

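Red cell genes other than the globins were followed in the metrial gland, the part of the rat uterine wall behind the placenta in which maternal natural killer cells, decidual stroma and vessels meet invading trophoblast. The list held 31 genes of red cell maturation, heme synthesis, the red cell membrane and red cell metabolism. For each gene the brightest of its probe sets was used, by mean over all 6 arrays. Of the 31 genes, 29 had a probe set, among the 31042 non-control probe sets of the array. Ermap and Tspo2, both red cell membrane proteins, had none that carried their symbol alone. The hypoxia group was 3 arrays of metrial gland from dams that breathed 10.5% oxygen between days 6.5 and 13.5 of gestation, and the ambient group was 3 arrays from dams at 21% oxygen, taken at the same stage. All values are of whole tissue and are on a log2 scale. The labels give no strain or age. They also do not tie each array to an animal of its own, and each p-value therefore reflects how these 3 samples scattered, part of which may be technical. The granule proteins of uterine natural killer cells, perforin (Prf1) and granzyme B (Gzmb), were among the brightest signals on every array, between 13.32 and 14.53, as the tissue label implies.

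Red cells are made from precursors that divide, fill with hemoglobin, expel their nucleus and enter the blood as reticulocytes, which still carry messenger RNA. Early steps depend on erythropoietin and its receptor and on the transcription factors Gata1, Tal1 and Klf1. Heme is built in a chain of enzymes that opens with aminolevulinate synthase, made from Alas1 in most cells and from Alas2 in red cell precursors, and ends with ferrochelatase (Fech), which inserts iron. Genes used late in this course include those for the membrane anion exchanger and for bisphosphoglycerate mutase. Which cells of this tissue gave the signal of such genes was not tested. In whole tissue, more red cells and more RNA per red cell cannot be told apart.

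Of the 29 genes, 21 passed a filter that left out the 40% of probe sets with the lowest mean over all arrays. In the comparison of hypoxia with ambient by limma across 18625 probe sets, 6 of the 21 rose at an adjusted p under 0.05, 0 fell, and 15 did not pass. The 6 were Alas2, Ahsp, Ampd3, Bpgm, Fech and Gypc, with rises between 1.64-fold and 4.92-fold. Over all probe sets tested, 4.02% were called higher and 1.97% lower (749 and 367, or 648 and 521 with quantile normalization, under which 7 listed genes rose and 0 fell). At an unadjusted p under 0.05 in the same limma fit, 10 of the 21 were higher and 1, Epor, was lower, where 13.1% of all probe sets tested were higher and 10.6% lower. Ahsp passed the filter only through its level in hypoxia, and without it the count was 5 of 20. The median difference of the 21 genes was 0.09, against 0.00335 over all probe sets tested, so most of the list moved little. Among the 29 genes with a probe set, 11 lay higher on every hypoxia array than on any ambient array, where 11.6% of all non-control probe sets did, and 2 lay lower, where 13.7% did. Adjusted p-values below come from this limma fit with n = 3 arrays a group, and a difference is hypoxia minus ambient on the log2 scale, followed by its standard error (SE). Where a gene left out for a low mean is given an adjusted p, it comes from the same fit without the filter, in which 2.34% of probe sets were called higher and 1.12% lower.

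**Figure D1:**
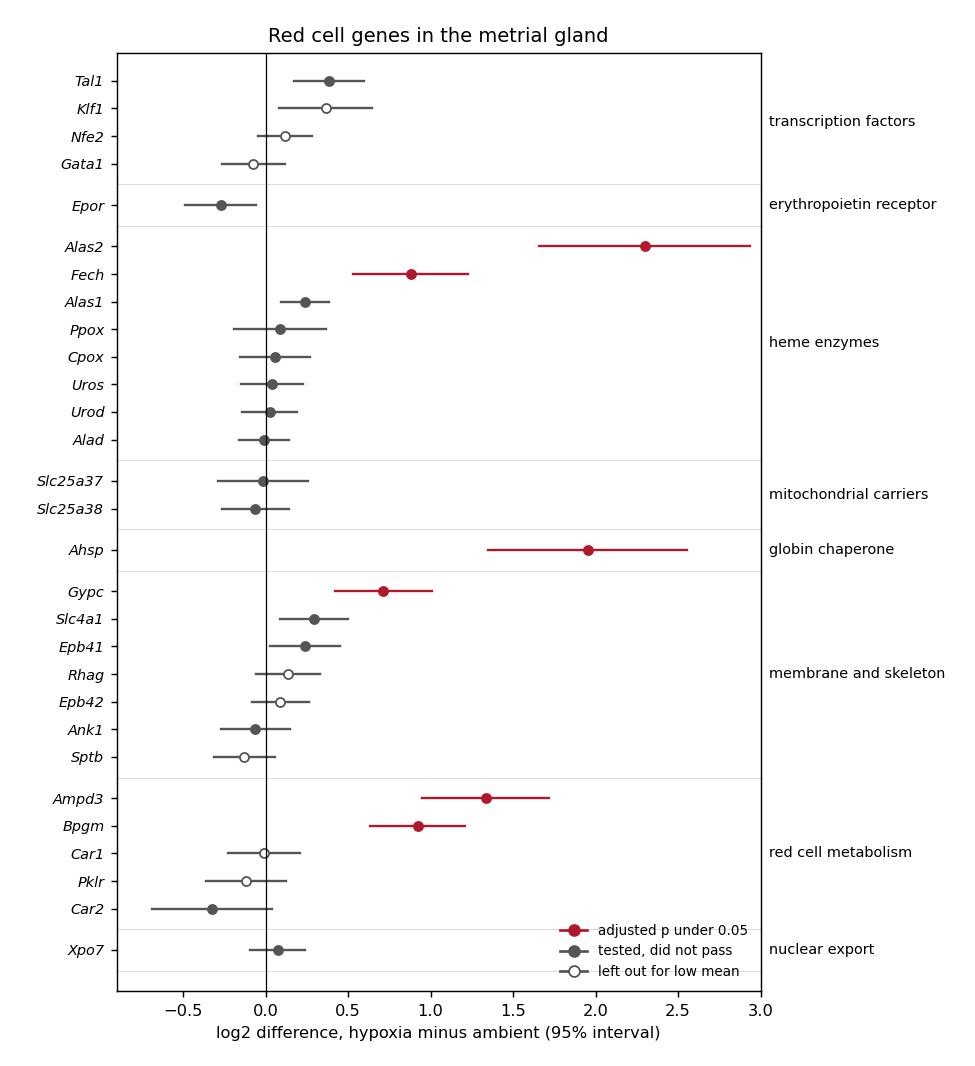
Log2 difference, hypoxia minus ambient, of 29 red cell genes (rows, grouped by role), with 95% intervals. Red points passed an adjusted p of 0.05, grey points did not, and open points were left out for a low mean and show the unfiltered fit. The 6 red intervals all start at or above 0.42, while the differences of the other 15 tested genes lie between -0.32 and 0.38.

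Of the 4 precursor regulators, 3 were left out for a low mean and Tal1 did not pass. Gata1, the master transcription factor of red cells, had values of 4.73, 4.67 and 4.61 in hypoxia and 4.68, 4.68 and 4.87 in ambient. Nfe2, which drives globin and late red cell genes, had 4.22, 4.11 and 4.02 in hypoxia and 3.98, 3.99 and 4.02 in ambient. Both lay at or below the brightest bacterial control probe set on each of the 6 arrays, which leaves their levels as bounds, and the groups overlapped. Klf1, the factor that switches on adult beta globin, had 5.52, 5.56 and 5.72 in hypoxia and 5.44, 5.28 and 4.99 in ambient. Its hypoxia values were all higher than its ambient values, by 0.36, but it too was left out for a low mean, and without the filter its adjusted p was 0.152.

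Tal1, a factor of red cell precursors that endothelium and megakaryocytes also use, had 6.83, 6.71 and 6.71 in hypoxia and 6.48, 6.25 and 6.37 in ambient, a difference of 0.38 (SE 0.09) that just missed the threshold (adjusted p = 0.0505). The groups did not overlap at this probe set, but a second and dimmer one differed by -0.0092. Tal1 passed under 6 of the 15 alternatives, with adjusted p from 0.0295 to 0.151 over all of them, and it did not pass with any 1 array left out.

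Epor, the erythropoietin receptor, was lower in hypoxia at all 3 of its probe sets, with none called. The brightest had 6.62, 6.42 and 6.69 in hypoxia and 6.83, 6.84 and 6.87 in ambient, a difference of -0.27 (SE 0.09, adjusted p = 0.13). The second had 6.33, 6.30 and 6.25 in hypoxia and 6.68, 6.53 and 6.50 in ambient, a difference of -0.28 (adjusted p = 0.0991). At both, every hypoxia array lay below every ambient array. The third and dimmest differed by -0.18 with overlapping groups. Of 17 other regulators tested 0 passed in limma. At an unadjusted p under 0.05 in that fit 2 were higher and 4 lower, where 13.1% and 10.6% of all probe sets tested were. Among the 17 were genes that act downstream of the receptor, named here after their values were seen. Jak2, the kinase bound to the receptor, differed by -0.52 (SE 0.13, adjusted p = 0.0541), its targets Stat5a by -0.09 (SE 0.07, adjusted p = 0.502) and Stat5b by -0.40 (SE 0.13, adjusted p = 0.112), and Pim1, a survival kinase induced by that path, by -0.53 (SE 0.13, adjusted p = 0.0564). Jak2 passed under 5 of 16 alternatives, Pim1 under 3 of 15 and Stat5b under 1 of 15. Other cytokine receptors share these genes. Uterine natural killer markers were lower on the same arrays, with 2 of 4 called, where 1.97% of all probe sets tested were called lower. The 2 were Nkg7, at -0.46 (adjusted p = 0.0153), and Il2rb, at -0.60 (adjusted p = 0.0214). The summed linear level of the 4 markers was 35344 to 38862 in hypoxia and 42689 to 48948 in ambient. Its part in the values of Epor and these kinases was not tested.

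Heme synthesis changed at its ends. Alas2, the red cell form of the first enzyme, rose and Fech, the last enzyme, rose, while the 5 enzymes between them on the list did not pass. Alas2 had 9.65, 10.14 and 9.18 in hypoxia and 7.88, 7.09 and 7.11 in ambient. The difference was 2.30 (SE 0.28), or 4.92-fold, with an adjusted p of 0.00713. Each hypoxia array stood more than 1 unit above the highest ambient array. Fech had 9.33, 9.57 and 8.94 in hypoxia and 8.49, 8.43 and 8.28 in ambient, with no overlap. Its difference was 0.88 (SE 0.15), or 1.84-fold, with an adjusted p of 0.02. With ambient replicate 2, ambient replicate 3 or hypoxia replicate 1 left out Fech did not pass (adjusted p 0.0617, 0.0814 and 0.0662), and its difference lay between 0.73 and 1.05 over all 6 such fits.

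Alad, Uros, Urod, Cpox and Ppox act between aminolevulinate and protoporphyrin. At their brightest probe sets their differences lay between -0.0090 and 0.0903 and their groups overlapped. The highest upper bound of these 95% intervals was 0.37, below the lower bound of 0.53 for Fech. A second probe set of Uros, nearly as bright, differed by 0.19 (95% interval -0.05 to 0.44), did not pass and had overlapping groups. Urod, for instance, had 10.03, 10.11 and 9.96 in hypoxia and 9.90, 10.06 and 10.05 in ambient. The mitochondrial carriers of the pathway were as flat. Slc25a37, which brings iron into red cell mitochondria, differed by -0.02 (95% interval -0.29 to 0.26), and Slc25a38, which brings in glycine, by -0.06 (95% interval -0.27 to 0.14).

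Alas1, the form of the first enzyme that most tissues use, had 8.81, 8.78 and 8.78 in hypoxia and 8.56, 8.54 and 8.56 in ambient. These groups did not overlap, but the difference of 0.24 (SE 0.06) did not pass (adjusted p = 0.0629). It passed with the 60% filter (0.0474) and with array weights (0.0429), and did not pass in the other alternatives. Taken within arrays, the difference between hypoxia and ambient was larger for Alas2 than for Alas1 by 2.06. The exact permutation test of that gap (n = 3 each) gave p = 0.1, two-sided, the smallest that 3 arrays against 3 allow.

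**Figure D2:**
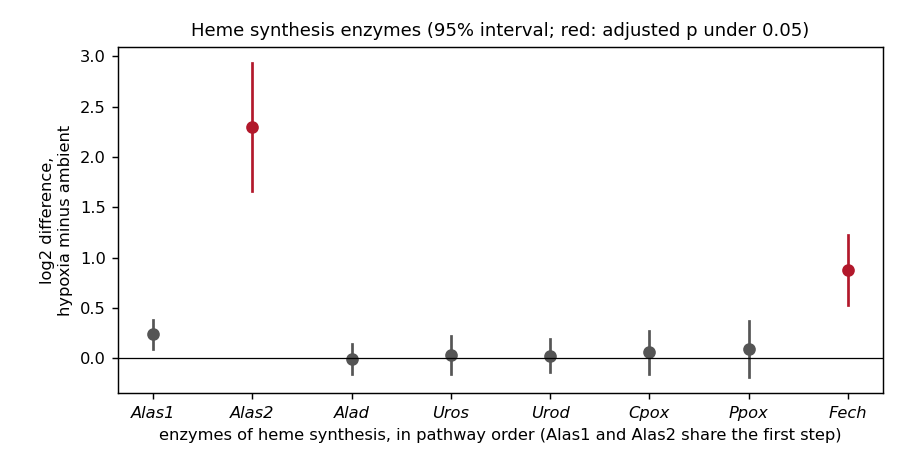
Log2 difference, hypoxia minus ambient, with 95% intervals, for 8 heme synthesis enzymes in pathway order. Alas2 at 2.30 and Fech at 0.88 passed an adjusted p of 0.05, and the 5 enzymes between them lie between -0.0090 and 0.0903.

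The sequence before the start of Fech is shown with those of Gypc, another gene that rose, and of Alas1, which did not pass, because Fech and Gypc are the only genes that rose whose RefSeq window (GRCr8) lies at the outer start of the gene, and Alas1 is the general form of the first heme enzyme. Each holds 250 bases before and 50 after the start, on the gene's strand. Capitals mark GATAA, a core of sites for GATA factors, which reads TTATC on the other strand. They also mark the CACCC core bound by Klf1 and related factors, which reads GGGTG.
Fech, chr18:60248476-60248775, minus strand: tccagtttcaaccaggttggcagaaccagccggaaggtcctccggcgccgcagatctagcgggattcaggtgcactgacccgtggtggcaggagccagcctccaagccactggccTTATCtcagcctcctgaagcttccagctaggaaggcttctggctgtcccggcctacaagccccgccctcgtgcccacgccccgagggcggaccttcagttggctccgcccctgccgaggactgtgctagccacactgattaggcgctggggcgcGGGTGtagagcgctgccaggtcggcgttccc
Gypc, chr18:24467543-24467842, minus strand: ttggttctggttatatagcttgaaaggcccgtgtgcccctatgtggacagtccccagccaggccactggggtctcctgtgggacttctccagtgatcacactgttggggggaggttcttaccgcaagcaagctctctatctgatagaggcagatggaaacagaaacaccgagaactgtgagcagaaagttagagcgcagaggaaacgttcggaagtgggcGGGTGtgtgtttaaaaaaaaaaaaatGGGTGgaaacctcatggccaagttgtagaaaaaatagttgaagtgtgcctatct
Alas1, chr8:115768593-115768892, minus strand: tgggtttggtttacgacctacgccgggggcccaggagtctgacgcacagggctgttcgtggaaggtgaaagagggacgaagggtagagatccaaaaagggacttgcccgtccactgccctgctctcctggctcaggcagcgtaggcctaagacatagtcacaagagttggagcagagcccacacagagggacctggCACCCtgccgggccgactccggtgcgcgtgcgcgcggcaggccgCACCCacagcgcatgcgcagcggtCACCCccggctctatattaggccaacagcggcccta
The window of Fech held 1 GATAA and 1 CACCC, that of Gypc 2 CACCC and that of Alas1 3 CACCC. For GATA factors only GATAA was searched. GATAG, which they also bind, is in the Gypc window in lower case, so the counts do not show which windows lack a GATA site. Of 20 listed genes with 1 such window, 9 had it at the outer start and 11 inside the gene. Among the 9, GATAA was in 3, CACCC in 7 and ACGTG, the core letters of hypoxia-inducible factor sites (CACGT on the other strand), in 2, Alad and Urod. Among all 20 the counts were 7, 13 and 2. Over 33469 RefSeq windows of this length the shares were 26.5%, 54.9% and 19.3%. Those windows include ones inside genes and more than 1 for some genes, so they are not a set like the 9. The window given for Alas2 lies 4800 bases inside the gene and that of Bpgm 468 bases, so neither is printed or counted among the 9. Only 4 of the genes that rose had a window of this length, and Ahsp and Ampd3 had none.

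Ahsp, the chaperone that holds free alpha globin in red cell precursors, had 7.78, 8.004 and 6.90 in hypoxia and 5.82, 5.55 and 5.45 in ambient. The groups stood apart by more than 1 unit, and hypoxia replicate 3 was the lowest of its group. The difference was 1.95 (SE 0.26), or 3.87-fold (adjusted p = 0.00985). The call held with any 1 array left out (adjusted p up to 0.0449).

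Membrane genes gave mixed values. Gypc, a glycophorin that ties the membrane to its skeleton and is not confined to red cells, had 8.84, 8.68 and 9.14 in hypoxia and 8.22, 8.29 and 8.02 in ambient. It rose by 0.71 (SE 0.13), or 1.64-fold (adjusted p = 0.0234), but did not pass once ambient replicate 1, 2 or 3 or hypoxia replicate 1 was left out (adjusted p 0.0547 to 0.0867). Slc4a1, the anion exchanger called band 3, was read by a pair of probe sets that disagreed. The brightest had 6.47, 6.42 and 6.26 in hypoxia and 6.15, 6.06 and 6.07 in ambient, a difference of 0.29 (SE 0.09) that did not pass (adjusted p = 0.0948). The dimmer had 6.17, 6.97 and 6.17 in hypoxia and 4.90, 4.59 and 4.60 in ambient. Neither probe set's groups overlapped, but at the dimmer one all 3 ambient arrays lay below the brightest bacterial control, and Slc4a1 was at least 2.88-fold higher in hypoxia there.

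That dimmer probe set of Slc4a1 was left out for its low mean. Without the filter its adjusted p was 0.00538, and between 0.00188 and 0.0298 with any 1 array left out. It was 1 of 2 probe sets other than the brightest of their gene to pass without the filter, the other being the second of Bpgm.

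The skeleton genes did not pass. Epb41, which links spectrin to actin in many cell types, had 9.83, 9.68 and 9.52 in hypoxia and 9.47, 9.33 and 9.50 in ambient, a difference of 0.24 (SE 0.09, adjusted p = 0.164) with groups that did not overlap. Ank1, the red cell ankyrin, differed by -0.06 (SE 0.09) at its brightest probe set, with overlapping groups. Sptb, beta spectrin, had 5.15, 5.16 and 5.15 in hypoxia and 5.30, 5.35 and 5.20 in ambient, and was left out for a low mean, as were Epb42 (protein 4.2) and Rhag, the ammonia channel that carries the Rh complex. Epb42 and Rhag stayed at or below the brightest bacterial control on all ambient arrays and differed by 0.09 and 0.14. In all, 8 of the 29 genes were left out for a low mean. Their differences lay between -0.13 and 0.36, and without the filter their adjusted p-values lay between 0.152 and 0.965.

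Red cell metabolism held a pair of the clearest rises. Ampd3, the red cell form of AMP deaminase, which other tissues express too, had 11.76, 11.37 and 11.67 in hypoxia and 10.61, 9.94 and 10.24 in ambient. It rose by 1.34 (SE 0.17), or 2.52-fold (adjusted p = 0.00796). Bpgm makes the bisphosphoglycerate that lowers the oxygen affinity of hemoglobin. It had 9.75, 10.06 and 9.53 in hypoxia and 8.92, 8.86 and 8.80 in ambient, and rose by 0.92 (SE 0.12), or 1.90-fold (adjusted p = 0.01). Its second probe set rose by 0.82 (SE 0.14, adjusted p = 0.0195). Neither gene's groups overlapped, and both calls held with any 1 array left out, with adjusted p up to 0.0385 for Ampd3 and 0.0461 for Bpgm.

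The carbonic anhydrases, which hydrate carbon dioxide, and pyruvate kinase did not pass. Car2, which many tissues express, had 11.06, 10.89 and 11.34 in hypoxia and 11.16, 11.36 and 11.73 in ambient. Its groups overlapped and it differed by -0.32 (SE 0.16, adjusted p = 0.263). Car1, the form abundant in mature red cells, had 4.81, 4.95 and 4.78 in hypoxia and 4.95, 4.70 and 4.93 in ambient, close to the bacterial controls. Pklr, the red cell and liver pyruvate kinase, was as low, at 4.58, 4.56 and 4.56 in hypoxia and 4.53, 4.61 and 4.93 in ambient. Xpo7, a nuclear exporter tied to the condensing of the precursor's nucleus, differed by 0.07 (SE 0.07) at its brightest probe set.

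**Figure D3:**
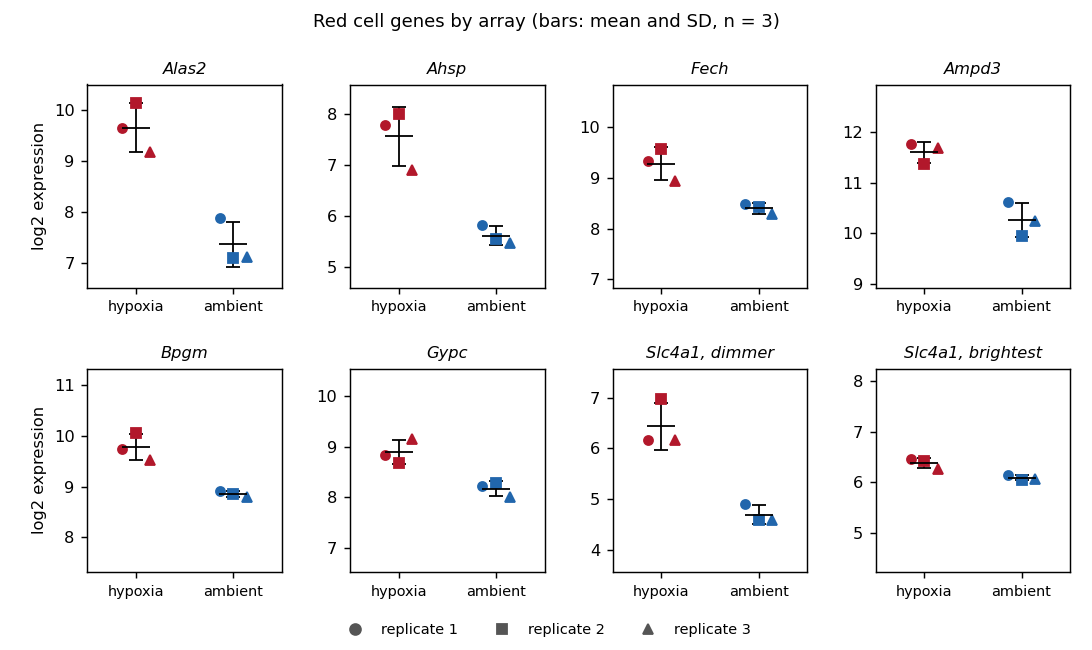
Log2 expression on each array (points, shaped by replicate) with mean and SD, n = 3, for the 6 genes that rose and for both probe sets of Slc4a1, hypoxia left of ambient. Each panel spans 4 log2 units. Hypoxia and ambient points do not overlap in any panel, and the gap is widest for Alas2, at 2.30 between the means.

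The 6 genes that rose did not order the arrays of a group alike. In hypoxia, replicate 2 was the highest and replicate 3 the lowest for Alas2, Fech, Ahsp and Bpgm, 4 of the 6 genes that rose. On these arrays the values of Alas2 minus its group mean were 0.49 and -0.48, and those of Ahsp 0.44 and -0.66. Gypc and Ampd3 had replicate 2 as their lowest hypoxia array, at -0.21 and -0.23 from their group means. In ambient, replicate 1 was the highest for 5 of the 6, Gypc being the exception. The second probe set of Bpgm differed from its brightest in this, being highest on hypoxia replicate 1 and on ambient replicate 3. Its lowest hypoxia array was again replicate 3. The adult beta globin Hbb had 14.26, 14.33 and 14.03 in hypoxia and 13.25, 12.77 and 12.78 in ambient, so its highest array in each group was that of Alas2.

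Embryonic globins ordered the arrays differently. Hbe1 had 9.92, 8.89 and 9.63 in hypoxia and 4.76, 7.98 and 4.58 in ambient. Hypoxia replicate 2, highest for Alas2, was the lowest for Hbe1, Hbg1 and Hbz, and ambient replicate 2, where Alas2 was at 7.09, was the highest for all 3. These orders rest on 3 arrays a group and were not tested.

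**Figure D4:**
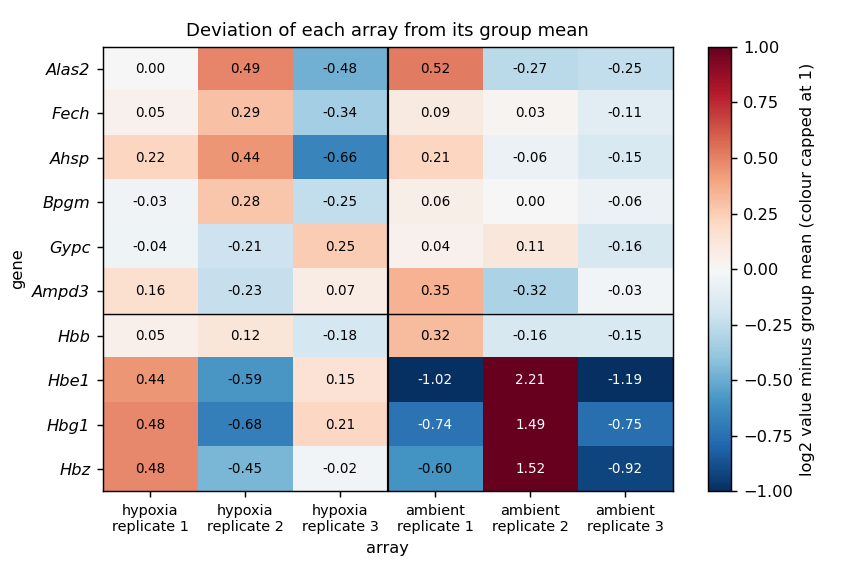
Log2 value of each array minus its group mean for the 6 red cell genes that rose and 4 globins (rows), by array (columns, hypoxia left of ambient), with the colour capped at 1. Alas2, Fech, Ahsp, Bpgm and Hbb are lowest on hypoxia replicate 3, while Hbe1, Hbg1 and Hbz are lowest on hypoxia replicate 2 and highest on ambient replicate 2, where Hbe1 stands 2.21 above its group mean.

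Beyond the list, 80 other genes of the same pathways were looked up, of which 68 had a probe set and 63 were tested. Of these, 3 rose, 0 fell and 60 did not pass, which at 4.76% is near the 4.02% called higher over all probe sets (at an unadjusted p under 0.05 in limma, 12 of the 63 were higher and 8 lower, where 13.1% and 10.6% of all probe sets tested were). All 3 were among 12 tested genes of maturation and protection, of which the other 9 did not pass. Ube2o, a ubiquitin ligase that clears ribosomes from reticulocytes, had 9.10, 9.48 and 8.96 in hypoxia and 8.44, 8.47 and 8.31 in ambient, and rose by 0.77 (SE 0.13, adjusted p = 0.0191). Hagh, a glyoxalase, rose by 0.37 (SE 0.07, adjusted p = 0.0292). Bnip3l, which removes mitochondria from reticulocytes and is also a known target of hypoxia-inducible factor in many cells, rose by 0.32 (SE 0.07, adjusted p = 0.0469), with 0.13 and no call at its second probe set.

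The differences of those 3 genes stayed similar when 1 array was left out, at 0.62 to 0.88 for Ube2o, 0.34 to 0.42 for Hagh and 0.27 to 0.40 for Bnip3l, but their calls did not all hold. The count was 0 when any 1 ambient array was left out, 1 without hypoxia replicate 1 or replicate 2, and 7 without hypoxia replicate 3, while calls of higher probe sets over the whole array ranged from 223 to 683. Adjusted p-values over the alternatives ran from 0.00966 to 0.0788 for Ube2o, from 0.0197 to 0.0939 for Hagh and from 0.0223 to 0.146 for Bnip3l. Hemgn, a nuclear protein of red cell precursors that was singled out after its values were seen, had 5.42, 5.60 and 4.999 in hypoxia and 4.38, 4.42 and 4.55 in ambient. It was left out for a low mean. On all 3 ambient arrays it lay below the brightest bacterial control, and it was at least 1.35-fold higher in hypoxia (adjusted p without the filter 0.0156, and 0.0528 to 0.0601 with hypoxia replicate 1 or one of the ambient arrays left out). Tmod1, tropomodulin of the membrane skeleton, differed by 0.55 (SE 0.16, adjusted p = 0.0894) at its brightest probe set and by 0.69 at a second one that passed (adjusted p = 0.0439). Of the heme and iron handling genes, 0 of 13 passed in limma, and the transferrin receptor Tfrc differed by -0.02 (SE 0.19). At an unadjusted p under 0.05 in limma 3 of the 13 were higher and 0 lower, where 13.1% and 10.6% of all probe sets tested were.

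Markers of other cell types, some of which share these genes, also differed between the groups. For scale, 4.02% of all probe sets tested were called higher and 1.97% lower. At an unadjusted p under 0.05 in limma the shares were 13.1% and 10.6%. Of 6 endothelial markers tested 3 rose (Vwf, Tie1 and Tek), and their summed linear level was 6703 to 7405 in hypoxia and 5887 to 6125 in ambient. Of 4 megakaryocyte and platelet markers tested 0 passed in limma (1 at an unadjusted p under 0.05), with Itga2b at -0.01 and Pf4 at 0.41 (adjusted p = 0.053), and a summed level of 552 to 618 in hypoxia and 452 to 511 in ambient. That sum leans on Pf4, the brightest of the list, and the other tested markers, Gp9 and Treml1, differed by 0.07 and -0.04. Of 3 mast cell markers tested Kit rose, by 1.43, and the defining Fcer1a lay below the bacterial controls, with a summed level of 465 to 661 in hypoxia and 310.0 to 410.3 in ambient. The gap in that sum leans on Kit, which has the highest mean of the list. Tpsb2 differed by -0.17 and Cma1 by 0.45, and neither passed. Of 7 trophoblast markers tested 6 rose, Plac1, Krt7 and Krt8 with the smallest p-values, with a summed level of 11810 to 16475 in hypoxia and 2321 to 6222 in ambient. Of 3 embryonic globins tested 3 rose, of which Hbz and Hbg1 passed the filter only through their level in hypoxia and Hbe1 exceeded the bacterial controls on 1 of 3 ambient arrays, with a summed level of 918 to 1849 in hypoxia and 98.2 to 517 in ambient. Of 7 yolk sac and fetal liver markers 3 were tested and 0 passed in limma (0 also at an unadjusted p under 0.05), with Afp and Apoa1 at bacterial control level and a summed level of 504 to 541 in hypoxia and 557 to 721 in ambient. Of 6 decidual stroma markers 2 rose, Hand2 and Bmp2 (Bmp2 passed the filter only through its level in hypoxia), and the list's summed level was 41610.2 to 53178 in hypoxia and 36278 to 38454 in ambient. The gap in that sum leans on Prl8a2, which is far brighter than Hand2 and Bmp2. Prl8a2 differed by 1.73 and did not pass (adjusted p = 0.0683). The 3' minus 5' signal of beta-actin, a sign of RNA integrity, was 0.576 to 0.77 in hypoxia and 0.411 to 0.541 in ambient, while that of GAPDH overlapped, at -0.040 to 0.057 in hypoxia and -0.047 to -0.0077 in ambient. The part of these differences in the red cell values was not tested.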

How the data were processed

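Expression was measured in 6 metrial gland samples on Affymetrix rat arrays, 1 array and 1 colour a sample. The deposited values are log2 expression per probe set, a scale read from the values (2.98 to 14.9). Per the submitters' processing notes MAS5 and Affymetrix Expression Console were used, with no role stated. Array medians lay between 6.44 and 6.47, so a shift of most genes at once would not be seen. Groups came from the sample titles.

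Values were used as deposited. After 57 control probe sets and the 40% with the lowest mean (below 5.74) were left out, 18625 were fitted with limma 3.58.1 in R 4.3.3 (lmFit, eBayes with a mean-variance trend, group as the only term, two-sided, Benjamini-Hochberg over all kept probe sets). The call rule was an adjusted p under 0.05. Symbols came from the platform annotation, using probe sets with 1 symbol (20826 of 31042, with 436 holding several and 9780 none). The annotation's gene identifiers matched RefSeq (GRCr8) for 20758. Sequences are from RefSeq. Background was judged from 27 bacterial control probe sets, the brightest of which reached 5.003. Where a gene did not exceed the brightest of them on each array of a group, its level there is a bound and its fold is taken against those brightest controls. Summed levels are sums of unlogged values over a marker list. The precision is limited by the number of arrays.

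All 31 listed genes are named. Of the wider list, genes past the threshold are named (up to 8), and of each marker list up to 3 past it. Some genes of these lists that did not pass or were left out for a low mean, such as Tmod1 and Pf4, are named outside this rule. Members and lists were chosen with earlier results of these data known. On simulated arrays made from the 18625 probe sets, the fit recovered 88.1% of changes of 1 log2 unit and 47.8% of changes of 0.5. Each of these sizes was set in 67 probe sets, with noise drawn separately for each probe set, and 9 unchanged probe sets were called. In the data more probe sets were called and noise may be shared between them, so the rates may differ there. Alternatives were other filters, normalizations and variance models, array weights, gene means, a replicate block and leaving out each array. The titles share replicate numbers, but deviations of same-numbered arrays correlated by 0.012 to 0.071, so the numbers were not taken to pair the arrays. One alternative, leaving out each array without the filter, was added after the data were seen.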

Additional observations from a re-analysis of the deposited data

How the results depend on the processing

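Of 329 values of single red cell genes under the alternatives, 305 kept their direction and side of the threshold, 8 gained a call (Tal1 and Alas1), 7 lost one (Fech and Gypc, each without 1 array) and 9 changed sign. The calls of Alas2, Ampd3 and Bpgm held under all 16 alternatives, and that of Ahsp under the 15 that tested it. The 6 rises among the listed genes ranged from 4 to 8 over the alternatives and the 0 falls stayed at 0. The sign changes were all of genes that did not pass and differed by less than 0.1. They were Urod with quantile normalization (-0.0016), Xpo7 as the mean of its probe sets (-0.068), and 5 genes with 1 array left out, over which Alad ranged from -0.022 to 0.011, Urod from -0.027 to 0.063, Cpox from -0.00094 to 0.121, Ppox from -0.033 to 0.165 and Slc25a37 from -0.123 to 0.089.

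Over all probe sets, 749 were higher and 367 lower. With 1 array left out the counts were 223 to 683 higher and 44 to 346 lower, and with no variance trend 241 were lower. The share of calls that were higher was 67.1% as reported and 55.4% with quantile normalization. Leaving out 1 array gave 0 to 7 rises and 0 to 2 falls among the wider list. Its 0 falls in limma (8 at an unadjusted p under 0.05) became 1 with the 60% filter or the robust trend and 2 with quantile normalization or median centring. With the replicate block the listed genes kept 6 rises, the wider list had 4 rises and 1 fall, and 797 probe sets were higher and 520 lower. The causes were not tested. Genes near the bacterial controls (Gata1, Nfe2, Car1, Pklr, Epb42, Rhag and the dimmer probe set of Slc4a1) have bounds or compressed values, and changes there may go undetected.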

Other observations

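Macrophages take up old red cells and hemoglobin and nurse red cell precursors. Of 8 macrophage markers, all tested, 0 rose and 2 fell in limma, where 1.97% of all probe sets were called lower (0 higher and 5 lower at an unadjusted p under 0.05, where 13.1% and 10.6% of all probe sets were). Cd163, the receptor for hemoglobin bound to haptoglobin, had 6.15, 6.01 and 6.15 in hypoxia and 7.10, 7.28 and 7.07 in ambient, and fell by 1.05 on the log2 scale (limma adjusted p = 0.0034). Vcam1, an adhesion molecule found on macrophages that hold red cell precursors and on endothelium and stroma, had 8.75, 8.98 and 9.79 in hypoxia and 10.13, 10.52 and 10.55 in ambient (adjusted p = 0.0336). The general macrophage markers Cd68, at -0.06, and Csf1r, at -0.22, did not pass. Mrc1 (-0.55), C1qa (-0.40), C1qb (-0.37) and Adgre1 (0.06) did not pass either. The summed linear level of the 8 markers was 3334 to 3555 in hypoxia and 4104 to 5166 in ambient. That sum leans on its brightest members, Cd68 and Vcam1, of which Vcam1 differed by -1.23. No sum was taken without Vcam1, so the gap is not a measure of macrophages as such.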
